A study of Mus musculus with 3 samples.

Results

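The cells described here are osteocalcin+ cells of mouse long bone that carried *Dmp1* or *Mepe* transcripts, a pair of genes used to mark late osteoblasts and osteocytes. They were chosen on measured values: a kept cell had to hold at least 5 unique molecular identifiers (UMIs, 1 per captured transcript) of *Dmp1* and *Mepe* together and at least 10 UMIs of the osteocalcin genes *Bglap* and *Bglap2*, with at most 1 UMI each of *Acan* (cartilage), of *Pecam1* plus *Cdh5* (endothelium) and of *Laptm5* plus *Tyrobp* (blood cells). Of 15628 kept cells, 243 met these criteria and are called members. They were 26 of 2382 kept cells in metaphyseal replicate 1 (1.09%, exact 95% binomial interval 0.714 to 1.60), 22 of 2004 in metaphyseal replicate 2 (1.10%, 0.689 to 1.66) and 195 of 11242 in the *Pdgfra-GFP* library (1.73%, 1.50 to 1.99). Intervals on shares and levels cover counting error only.

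All 3 droplet libraries came from untreated mice aged 3 weeks, labelled C57BL/6. The 2 metaphyseal libraries were made from dissected metaphyses of males without the reporter (C57BL/6J in the study's methods) after magnetic depletion of blood lineage, CD45+ and CD117+ cells. The *Pdgfra-GFP* library, 1 library with no replicate, was made from GFP+ cells sorted from femur and tibia of males heterozygous for *Pdgfra-H2B-GFP*, a knock-in that puts a nuclear GFP under the *Pdgfra* locus. The number of mice behind each library is not given in the sources used here, so p-values measure the spread between these libraries. The dissected region of these bones is the metaphysis in the study's methods and the metaphysis with the epiphysis in its legends. Genotype, sort and library, and the region if it differed, cannot be told apart. The labels of all 3 libraries name the Chromium chemistries V2 and V3 together, whereas the study's methods name V3. The libraries held 25243314, 22082735 and 91747759 UMIs over all barcodes, and the median member held 25172, 22546 and 12229 UMIs. Comparison cells were kept cells with osteocalcin at 0.5% or more of their UMIs and fewer than 5 UMIs of *Dmp1* and *Mepe*. They numbered 49, 60 and 1345, with medians of 20895, 22867 and 10978 UMIs. Levels below are CPM, the UMIs of a gene per 1000000 UMIs of the cells summed, and 3 values in a row are metaphyseal replicate 1, metaphyseal replicate 2 and the *Pdgfra-GFP* library. CPM are not scaled by transcript length, so levels are compared between cells and not between genes. No member barcode was shared between libraries, and 1 member barcode was also a kept barcode of another library.

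Osteocytes are former osteoblasts that have become enclosed in the matrix they made and that contact each other through dendrites. They are known for regulating mineralization and phosphate handling, through *Dmp1*, *Phex*, *Mepe* and *Fgf23*, and for restraining bone formation through the secreted Wnt inhibitors *Sost* and *Dkk1*. Late osteoblasts share part of this programme before they are buried, and fully enclosed osteocytes are difficult to release by enzymatic digestion.

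*Dmp1*, *Ibsp*, *Mepe* and *Spp1* encode secreted acidic proteins of mineralized matrix and lie in 1 cluster on the forward strand of mouse chromosome 5 (GRCm38). *Dmp1* spans chr5:104202613-104214102, *Ibsp* chr5:104299171-104311469, *Mepe* chr5:104325329-104338611 and *Spp1* chr5:104435118-104441050. Their promoters are shown because 3 of these neighbours were abundant in the members while *Mepe* was nearly absent from them. Each is the RefSeq window of 300 bases, 250 before and 50 after an annotated start (GRCm38.p6, forward strand, 5′ to 3′). Capitals mark TGTGGT or its reverse complement ACCACA, the core letters bound by RUNX factors, the only motif searched, on both strands.
Dmp1, chr5:104202367-104202666: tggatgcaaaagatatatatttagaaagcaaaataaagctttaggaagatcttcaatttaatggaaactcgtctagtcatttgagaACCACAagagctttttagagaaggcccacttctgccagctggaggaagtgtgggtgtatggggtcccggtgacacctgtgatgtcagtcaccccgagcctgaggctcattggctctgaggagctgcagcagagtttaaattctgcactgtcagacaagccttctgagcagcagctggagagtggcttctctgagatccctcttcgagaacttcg
Ibsp, chr5:104299037-104299336: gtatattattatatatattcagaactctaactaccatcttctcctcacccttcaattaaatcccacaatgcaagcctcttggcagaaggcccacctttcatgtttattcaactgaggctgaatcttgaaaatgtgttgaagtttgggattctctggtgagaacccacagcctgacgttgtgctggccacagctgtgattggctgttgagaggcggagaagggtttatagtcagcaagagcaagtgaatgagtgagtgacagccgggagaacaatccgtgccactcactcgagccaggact
Mepe, chr5:104325079-104325378: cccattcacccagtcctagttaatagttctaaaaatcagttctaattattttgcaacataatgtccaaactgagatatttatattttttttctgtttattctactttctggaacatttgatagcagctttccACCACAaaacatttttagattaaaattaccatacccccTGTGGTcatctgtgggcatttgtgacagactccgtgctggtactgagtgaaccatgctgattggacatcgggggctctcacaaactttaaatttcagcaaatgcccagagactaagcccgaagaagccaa
Spp1, chr5:104434861-104435160: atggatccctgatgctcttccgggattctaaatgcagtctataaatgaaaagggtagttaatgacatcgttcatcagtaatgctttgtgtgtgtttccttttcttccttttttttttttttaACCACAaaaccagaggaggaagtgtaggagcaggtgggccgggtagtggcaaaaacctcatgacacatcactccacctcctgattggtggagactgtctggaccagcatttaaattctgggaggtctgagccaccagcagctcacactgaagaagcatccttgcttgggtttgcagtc
The motif was found 1 time in the *Dmp1* window, 2 times in that of *Mepe*, 1 time in that of *Spp1* and 0 times in that of *Ibsp*. Of 32851 RefSeq promoter windows of this length, 5506 (16.8%) held it. RefSeq gave a second start to *Dmp1* (window chr5:104197325-104197624) and to *Spp1* (chr5:104435942-104436241), and the motif was found 0 times in both windows. A match is a description of the letters only.

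The selection rested on *Dmp1*. Members held 483, 463 and 4067 UMIs of *Dmp1*, or 789.6, 984 and 1722 CPM. *Mepe*, a matrix glycoprotein cut into mineral-binding peptides, was near 0: 0, 10 and 11 UMIs, in 0, 2 and 8 members. Choosing on *Dmp1* alone returned the same counts of 26, 22 and 195 cells, and choosing on *Mepe* alone returned 0, 1 and 0. Of the pair in the name given to these cells, *Dmp1* was thus the gene that they carried. The median member held 10, 12 and 11 UMIs of the pair, and the highest 135, 194 and 245. Exactly 5 UMIs were held by 1, 2 and 33 members, and 6, 1 and 34 cells that met the other criteria had exactly 4. In the *Pdgfra-GFP* library, *Mmp13*, a collagenase of hypertrophic cartilage and osteoblasts, stood at 992 CPM in the 52 members with 5 or 6 UMIs of the pair and at 561 in the 102 cells just outside with 3 or 4. *Ibsp* stood at 5666 and 3948 in the same cells, *Spp1* at 20826 and 13101, *Phex* at 53.3 and 69.1 and *Dkk1* at 4.44 and 35.4. In metaphyseal replicate 2, *Mmp13* stood at 17.5 in 6 such members and 23.3 in 5 cells outside, *Ibsp* at 2272 and 3051 and *Phex* at 43.9 and 194. In metaphyseal replicate 1, *Mmp13* stood at 519.8 in 4 such members and 15.3 in 12 cells outside, *Dkk1* at 24.2 and 11.5 and *Phex* at 60.4 and 76.5. The values on the 2 sides of the threshold had no common order over the libraries for *Mmp13*, *Dkk1* and *Ibsp*, the last at 2684 and 2232 in metaphyseal replicate 1. *Phex* was lower in the members next to the threshold than in the cells outside in every library. *Spp1* was higher in them in every library, at 10662 and 7351 in metaphyseal replicate 1 and 11098 and 4518 in metaphyseal replicate 2.

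Free RNA in the droplets gives UMIs of a gene in cells that do not express it, so *Dmp1* was also measured in cells that should lack it. With every cell thinned to 2000 UMIs, *Dmp1* was detected in 0.0914%, 0% and 0% of 1094, 858 and 219 endothelial cells (*Pecam1* plus *Cdh5* at 5 UMIs or more). Members and comparison cells were chosen on these UMIs and are not set against them. Without thinning the endothelial shares were 0.457%, 0.117% and 1.37%, at medians of 6010, 6266 and 5890 UMIs. Osteocalcin was different: *Bglap* was detected in 59.8% of thinned endothelial cells of the *Pdgfra-GFP* library and in 4.30% and 4.66% of those of the metaphyseal libraries (unthinned, 93.6%, 11.9% and 14.7%). Of the 219 *Pdgfra-GFP* endothelial cells, 7 (3.20%) reached the minimum of 10 osteocalcin UMIs asked of members, and 0 of 219 reached the 0.5% asked of comparison cells. Osteocalcin made up a median of 0.759%, 1.63% and 2.34% of the UMIs of members and 2.53%, 2.96% and 10.5% of those of comparison cells. The share was below 0.5% in 11, 7 and 55 members, whereas comparison cells were chosen to reach it, and the part of this difference in the results was not tested.

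The label was then compared with the genes that define a mature osteocyte. *Sost*, which encodes sclerostin, had 0 UMIs in the members of both metaphyseal libraries, where 3 UMIs, the fixed limit used here for a count of 0, would stand at 4.90 and 6.37 CPM. The *Pdgfra-GFP* members held 115 UMIs of it in 15 of 195 cells, with 49 in the highest cell, against 1 UMI in 1345 comparison cells and 0 in 219 endothelial cells. *Fgf23*, the phosphate-lowering hormone, had 0 UMIs in all members of the 3 libraries, and the same limit stands at 1.27 CPM in the *Pdgfra-GFP* library. The main bone collagen gene was high in the sums of every library: *Col1a1* stood at 121523, 123009 and 84379.9 CPM of the members. It was not high in every cell.

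*Col1a1* made up less than 2% of the UMIs in 1 of 26, 0 of 22 and 34 of 195 members, and a median of 13.8%, 13.9% and 9.73% in the others. This limit was set after the values were seen, and the values below are a description within 1 library. The 34 *Pdgfra-GFP* members held a median of 0.488% *Col1a1*, and 1092 of 1094, 854 of 858 and 219 of 219 endothelial cells also lay under 2%, with medians over all of them of 0%, 0.0121% and 0.0477%. Osteocalcin made up a median of 0.214% of the UMIs of the 34 cells and 4.37% of those of the other 161, and 14 of the 34 held fewer than 20 osteocalcin UMIs, where the minimum was 10. Their median depth was 9451 UMIs, against 12968. In the 34 cells *Col1a2*, the partner chain of *Col1a1*, stood at 5941 CPM against 73322, and *Sparc*, osteonectin, at 9074 against 62031. *Spp1*, osteopontin, stood the other way, at 114668 against 11272, so that the 34 cells held 39025 of the 61816 *Spp1* UMIs of these members. *Mmp13* stood at 6932 against 197.

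Other genes followed one or the other direction. *Tnc*, tenascin C, stood at 2007 CPM in the 34 cells and 86.1 in the 161, *Serpine2*, a protease inhibitor, at 7928 and 515, *Postn*, periostin, at 705 and 37.6, and *Mmp9*, a gelatinase, at 241 and 7.91. *Dmp1*, which chose the cells, stood at 1358 and 1783, and the 161 include cells, described below, with far more *Dmp1* than the rest. Of genes of the osteoblast lineage that the selection did not use, *Ibsp*, bone sialoprotein, stood at 4836 and 6477, the factors *Runx2* and *Sp7* at 162 and 93.5 and at 138 and 176, and *Alpl*, the alkaline phosphatase of osteoblasts, at 834 and 374. *Phex* and *Dkk1* stood at 38.2 and 32.3 in the 34 cells and at 294 and 252 in the 161. The 161 include the cells with most of both genes described below, and the rest of the 161 were not summed apart for *Phex* and *Dkk1*. *Sost* had 0 UMIs in the 34 cells and *Col10a1*, of hypertrophic cartilage, 1. Comparison cells, introduced above, included 147 of 1345 cells of the *Pdgfra-GFP* library under the same limit, and 1 of 49 and 0 of 60 of the metaphyseal libraries. In those 147, *Spp1* stood at 23006, *Mmp13* at 1056 and *Ibsp* at 8739, the last above the 4836 of the 34 members. In the same 147, *Col2a1*, the collagen of cartilage, stood at 11986, against 323 in the 34 members. The name late osteoblast or osteocyte is thus not borne out by *Col1a1* for every cell. The members are called here *Dmp1*+ osteocalcin+ cells only because they passed the limits of the selection. Of the members, 15, all in 1 library, held a UMI of *Sost*. Of the 34 cells, 24 held osteocalcin below 0.5% of their UMIs, and how much of it was free RNA was not tested.

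**Figure D1:**
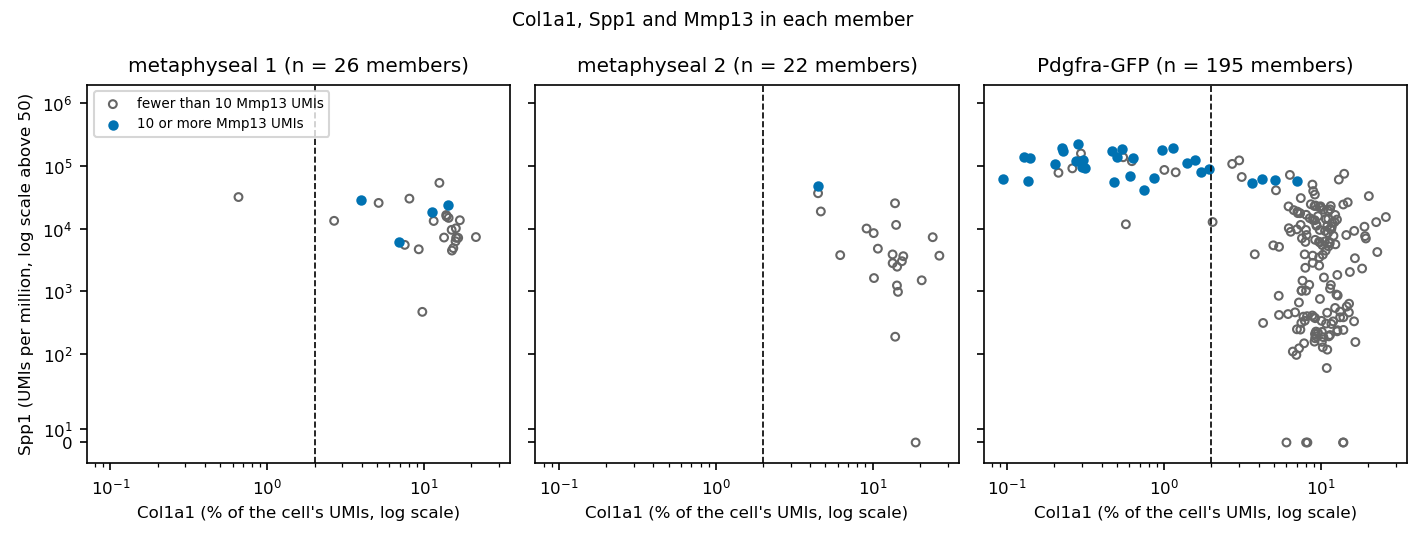
Each point is 1 member, with *Col1a1* as a percent of its UMIs on the x axis (log scale) and *Spp1* on the y axis (CPM, log scale above 50), in 1 panel per library. The dashed line is at 2%. Filled points hold at least 10 UMIs of *Mmp13*, and 26 of the 30 in the *Pdgfra-GFP* library lie to the left of the line, at high *Spp1*.

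The members were not uniform. *Phex* (a membrane peptidase lost in X-linked hypophosphataemia), *Dkk1*, *Ptprz1* (a receptor phosphatase of osteocytes) and *Pdpn* (podoplanin, needed for osteocyte dendrites) were given as markers of these cells with earlier results known. None of the 4 was found in 5, 8 and 77 members of the 3 libraries, and exactly 1 was found in 15, 8 and 58. All 4 were found in 1, 1 and 36 members. Exactly 2 or 3 of the genes were held by 18 and 6 *Pdgfra-GFP* members, fewer than held all 4 (18.5% of members), although the median depth of the 36, 11241 UMIs, was below that of the other 159 members, 12879. All 4 genes were also found in 9 of 1345 comparison cells of that library (0.669%), in 1 of 49 and 2 of 60 in the metaphyseal libraries and in 0 endothelial cells of any library. All 15 *Sost*+ members were among the 36. The single metaphyseal replicate 2 cell with all 4 genes held 194 UMIs of the *Dmp1* and *Mepe* pair among 15895. The single metaphyseal replicate 1 cell held 5 among 20768, the minimum for a member.

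**Figure D2:**
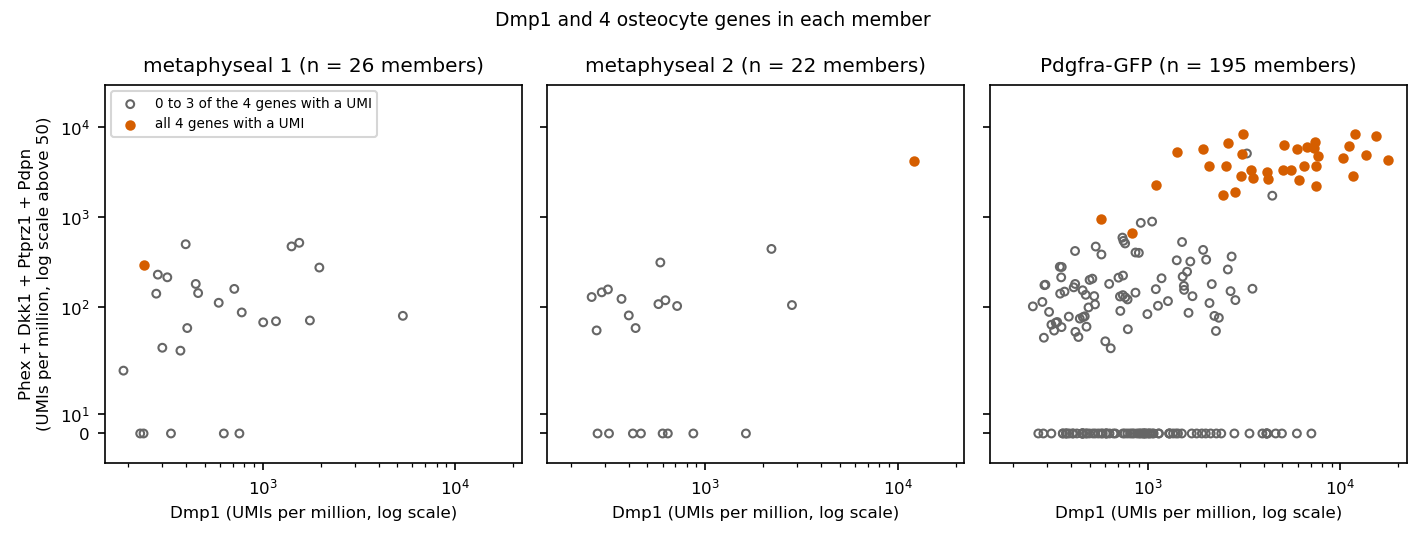
Each point is 1 member, with its *Dmp1* level (CPM, log scale) on the x axis and the summed level of *Phex*, *Dkk1*, *Ptprz1* and *Pdpn* on the y axis (log scale above 50), in 1 panel per library. Filled points carry all 4 genes: 36 of 195 members in the *Pdgfra-GFP* library, in the upper part of the panel, and 1 in each metaphyseal library, while members with none of the 4, at 0 on the y axis, overlap them in *Dmp1* level.

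In the *Pdgfra-GFP* library the 36 cells with all 4 genes held 5502 CPM of *Dmp1*, against 1011 in the other 159 members. Among these 159, the 34 with little *Col1a1* stood at 1358. The grouping by all 4 genes was made after the values were seen and within 1 library, so its values are a description. *Sost* stood at 308 CPM in the 36 cells and at 0 in the others. *Irx5*, a homeobox factor of bone, stood at 1092 and 65.4, *Ackr3*, a scavenger receptor for CXCL12, at 733 and 9.55, and *Cd44*, a hyaluronan receptor of osteocytes, at 423 and 27.2. *Plpp1*, a lipid phosphatase, stood at 2114 and 16.1, and *Fbln7*, a fibulin, at 458 and 2.51. A pair of lymphocyte genes stood among the 5 largest ratios, *Ighm*, an immunoglobulin heavy chain, at 155 and 0.503, in 19 of 36 and 1 of 159 cells, and *Ctsw*, a cathepsin of lymphocytes, at 142 and 1.01, in 21 and 1. The 4 B lineage markers, *Cd79a*, *Cd79b*, *Vpreb1* and *Cd74*, summed to 9 UMIs in all 195 members of the library, with *Cd79a* at 0. *Ibsp* was high in both sets at 11478 and 5257. *Cdkn1a*, an inhibitor of the cell cycle, stood at 1897 and 394.

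A second set of genes was higher in the other 159 members. None of the 34 cells with little *Col1a1* was among the 36, so the 159 are these 34 and 125 more. *Spp1* stood at 30373 CPM in the 159 and at 3795 in the 36 cells, below the 6419 of comparison cells. A single cell held 1232 of the 1418 *Spp1* UMIs of the 36, without which they stood at 526, and the 125 stood at 12967. *Mmp13* stood at 1341 and 244, but at 187 in the 125, and the same single cell held 79 of the 91 UMIs of the 36, which stood at 33.9 without it. *Alpl* stood at 509 in the 159 and 74.9 in the 36, with 442 in the 125. *Tmem119*, an osteoblast membrane protein, stood at 279.6 and 8.03, with 334 in the 125 and 14.7 in the 34. *Smpd3*, a sphingomyelinase needed for mineralization, stood at 352 and 32.1, with 422 in the 125 and 11.8 in the 34. *Postn* stood at 156 and 13.4, with 43.1 in the 125, and *Lum*, lumican, at 1539 and 259.6, with 1407 in the 125. In comparison cells *Alpl*, *Smpd3* and *Lum* stood at 551, 427 and 1865, nearer to the 159 cells than to the 36. *Mmp13* itself was concentrated in few cells: at least 10 UMIs were held by 29 of the 159 members (18.2%, 12.6 to 25.1), by 1 of the 36 and by 29 of 1345 comparison cells (2.16%, 1.45 to 3.08). Of these 30 members, 26 were among the 34 with little *Col1a1*, which held 2359 of the 2758 *Mmp13* UMIs of members of that library, and 22 of the 29 comparison cells also lay under 2% *Col1a1*.

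**Figure D3:**
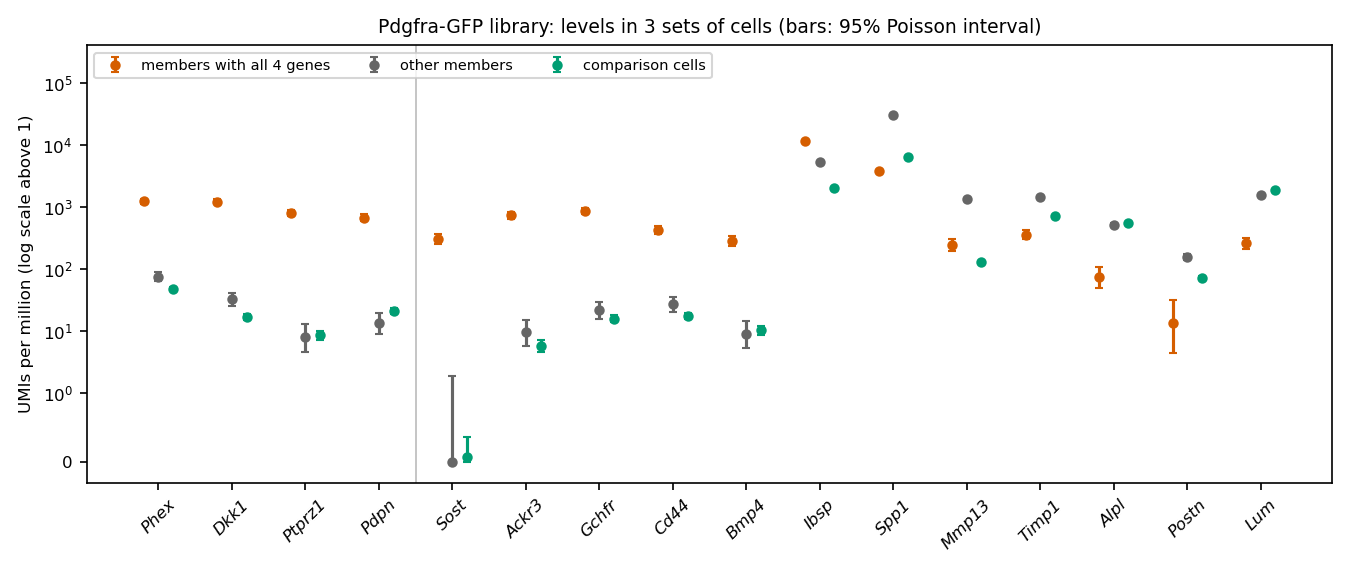
Levels in the *Pdgfra-GFP* library (y axis, CPM, log scale above 1) of 16 genes (x axis) in the 36 members with all 4 of *Phex*, *Dkk1*, *Ptprz1* and *Pdpn*, the other 159 members and 1345 comparison cells, with 95% Poisson intervals. The first 4 genes defined the set. *Sost*, *Ackr3*, *Gchfr*, *Cd44* and *Bmp4* were higher in the 36 cells than in the other members, and *Spp1*, *Mmp13*, *Timp1*, *Alpl*, *Postn* and *Lum* were lower.

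Members as a whole were then set against the comparison cells, which held fewer than 5 UMIs of *Dmp1* and *Mepe* but were not free of *Dmp1*. The UMIs of all cells of a population were added up within each library. The 6 sums were tested with edgeR's quasi-likelihood test, library as a block, with Benjamini-Hochberg adjustment over all genes tested. Apart from the genes of the selection and *Bglap3*, 6731 genes were tested and 98 (1.46%) passed an adjusted p of 0.05: 67 were higher in members (0.995%) and 31 lower (0.461%). Of the 98, 90 had the same direction in every library. The median log2 fold change of all genes tested was -0.01. The genes of the selection are described only: *Dmp1* stood at 42.3, 33.9 and 42.2 CPM in comparison cells, and *Bglap* at 22019, 19729.5 and 58686 in members and 34006, 33457 and 99331 in comparison cells.

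Of 14 tested genes of the mineralization list, 7 were higher and 2 lower in members, with a median log2 fold change of 0.57. Over all genes tested, 0.995% were higher and 0.461% lower. The 7 include the marker *Phex*, described below and proposed with results of these data known, so the count is not independent evidence. *Ibsp*, named here after its values were seen, held 3696, 4326 and 6241 CPM in members of the 3 libraries and 2194, 1913 and 2035 in comparison cells. Every member value lay above every comparison value (4754 ± 1325 against 2048 ± 141, SD, n = 3 libraries), and the difference passed the edgeR test (log2 fold change 1.10, SE 0.12, adjusted p = 0.000626). *Spp1*, also named after its values were seen, held 14548, 10579.8 and 26168 in members and 5884, 5429 and 6419 in comparison cells. It was higher in members in all 3 libraries (log2 fold change 1.35, SE 0.14, adjusted p = 0.000377), and by 1.10 with cells under 2% *Col1a1* left out of both populations (adjusted p = 1.03e-06), a fit added after seeing the data. In metaphyseal replicate 2, 1682 of the 4979 *Spp1* UMIs of members lay in 1 cell. The median cell there held 3744 CPM in members and 3697 in comparison cells. *Ank*, which exports the mineralization inhibitor pyrophosphate, held 34.3, 46.7 and 71.1 in members and 15.7, 18.6 and 19.6 in comparison cells (log2 fold change 1.54, SE 0.19, adjusted p = 0.00117). Its groups did not overlap. In the metaphyseal libraries alone its log2 fold change was 1.17 (adjusted p = 0.0544), and without cells under 2% *Col1a1* it was 1.01 (adjusted p = 0.0173).

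*Enpp1*, the ectoenzyme that makes pyrophosphate, was scarce but followed the same direction, with 10, 6 and 77 UMIs in members and 1, 4 and 99 in the larger sums of comparison cells (log2 fold change 2.27, SE 0.26, adjusted p = 0.000978). Of the 77, 51 lay in the 34 members with little *Col1a1*. Without cells under 2% *Col1a1* the log2 fold change of *Enpp1* was 1.86 (edgeR, adjusted p = 0.0173), and DESeq2 did not call it. *Fam20c*, the kinase that phosphorylates secreted matrix proteins, held 50.7, 48.9 and 117 CPM in members and 33.5, 25.8 and 26.8 in comparison cells (log2 fold change 1.46, SE 0.25, adjusted p = 0.0119). In metaphyseal replicate 2, 15 of its 23 member UMIs lay in 1 cell. Without the *Pdgfra-GFP* library *Fam20c* did not pass (log2 fold change 0.68, adjusted p = 0.431). Nor did it pass without the members that held *Phex*, *Dkk1*, *Ptprz1* and *Pdpn* together (log2 fold change 0.99, adjusted p = 0.133). *Cd109*, a surface protein, held 34.3, 29.7 and 123 and 25.6, 24.2 and 21.5, a difference carried by the *Pdgfra-GFP* library (log2 fold change 1.64, SE 0.35, adjusted p = 0.0367; without it, log2 fold change 0.30, adjusted p = 0.944). Without the members that held all 4 of those markers, *Cd109* did not pass either (log2 fold change 0.45, adjusted p = 0.512). The 2 genes that were lower were *Mgp*, matrix Gla protein, an inhibitor of calcification made by cartilage and stroma (log2 fold change -1.59, SE 0.16, adjusted p = 0.000377), and *Car3*, a carbonic anhydrase. The *Mgp* call was lost when comparison cells had to meet the exclusions of the members (log2 fold change -0.64) and in the metaphyseal libraries alone (log2 fold change -1.43, adjusted p = 0.264). *Alpl* itself did not pass, at 618, 538 and 440.3 in members and 478, 538 and 551 in comparison cells (adjusted p = 0.894).

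**Figure D4:**
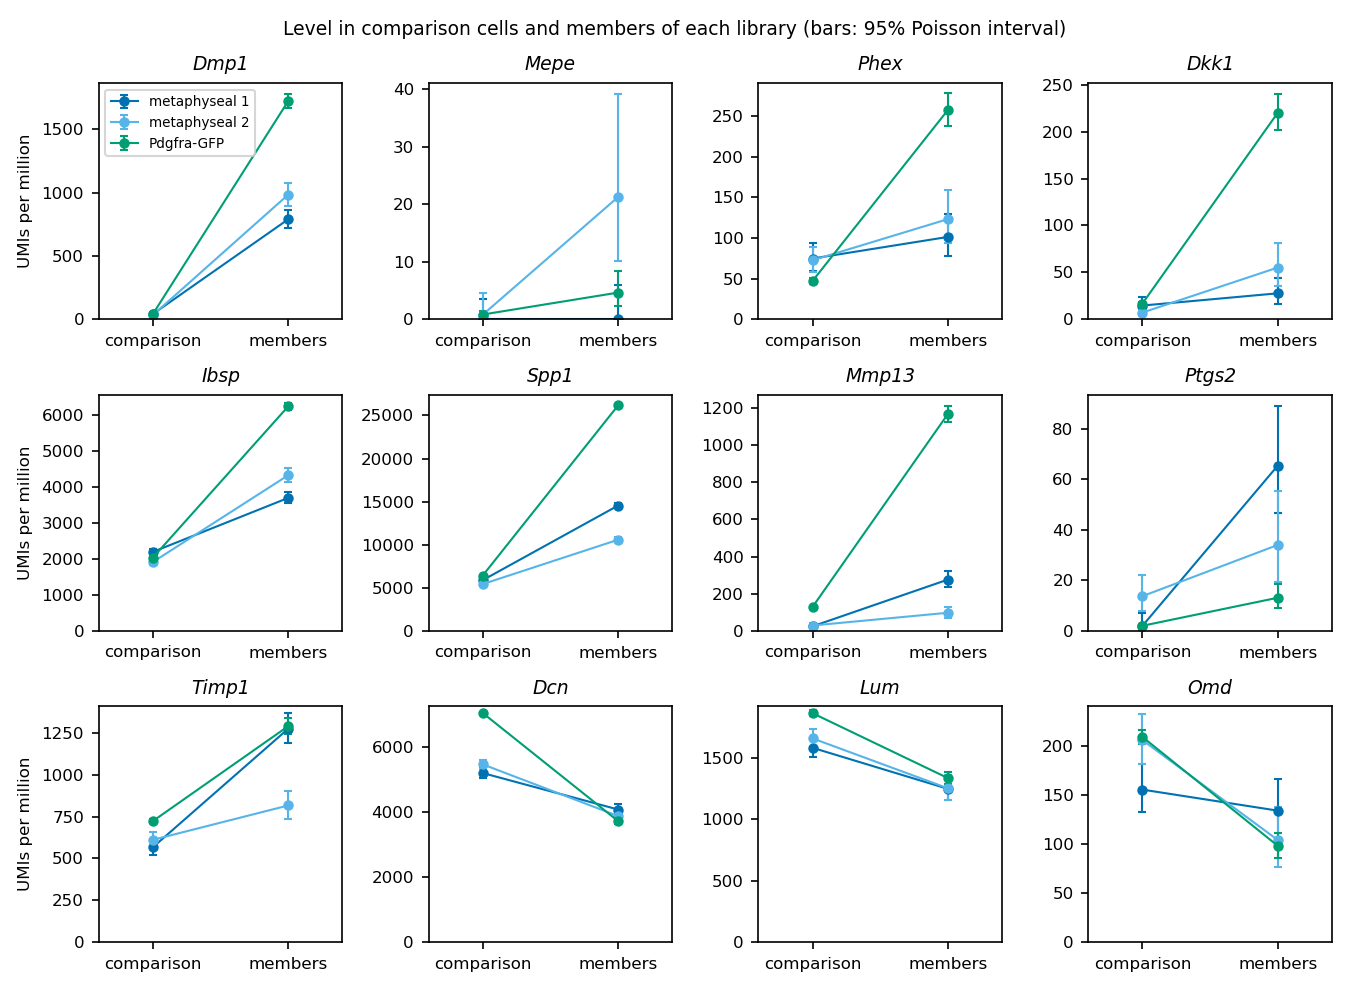
Levels of 12 genes (y axes, CPM from 0) in comparison cells and members (x axis) of the 3 libraries, joined within a library, with 95% Poisson intervals. *Dmp1* and *Mepe* took part in the selection. *Ibsp*, *Spp1*, *Mmp13*, *Ptgs2* and *Timp1* were higher and *Dcn*, *Lum* and *Omd* lower in members of every library, and *Phex* and *Dkk1* have their steepest lines in the *Pdgfra-GFP* library.

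*Mmp13* had the largest fold change of the protease list. It held 276, 97.7 and 1168 CPM in members and 24.6, 29.1 and 129 in comparison cells (log2 fold change 2.87, SE 0.21, adjusted p = 5.19e-05). It was higher in members in 3 of 3 libraries, but the level varied over 10-fold among them and the groups overlapped, since members of metaphyseal replicate 2 lay below comparison cells of the *Pdgfra-GFP* library. In metaphyseal replicate 2, 39 of 46 UMIs lay in 1 member, and in metaphyseal replicate 1, 74 of 169. With cells under 2% *Col1a1* left out of both populations the log2 fold change was 2.06 (adjusted p = 0.00178), and *Mmp13* of the *Pdgfra-GFP* library then stood at 197 CPM in members and 70.8 in comparison cells. Without thinning, *Mmp13* was found in 48.7% of members, 43.0% of comparison cells and 28.3% of endothelial cells of the *Pdgfra-GFP* library. After thinning it was detected in 22.1%, 13.2% and 11.9%, so its share in comparison cells was close to that in endothelial cells. At least 10 UMIs of *Mmp13* were held by 8, 5 and 2 endothelial cells of the 3 libraries. Whether these cells express *Mmp13* was not tested. *Timp1*, a secreted inhibitor of metalloproteinases, held 1273, 816 and 1289 in members and 567, 611 and 723 in comparison cells, with no overlap (log2 fold change 0.73, SE 0.11, adjusted p = 0.00716). *Mmp2*, *Ctsk* and *Ctsl*, a gelatinase and 2 cathepsins, did not pass (adjusted p = 0.451, 0.213 and 0.791). Of the 12 tested genes of the list, 2 were higher and 0 lower, with a median log2 fold change of 0.19.

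*Ptgs2*, cyclooxygenase 2, an enzyme of prostaglandin synthesis that bone cells raise under load, was among the 10 largest positive changes. It held 40, 16 and 31 UMIs in members, or 65.4, 34.0 and 13.1 CPM, and 1.97, 13.7 and 2.02 CPM in comparison cells (log2 fold change 2.55, SE 0.40, adjusted p = 0.00707). Here the metaphyseal members were the highest. All 31 UMIs of the *Pdgfra-GFP* library lay in members outside the 36 with all 4 markers. *Junb*, an immediate early factor, was higher in every library (927, 793 and 297 against 552, 529.6 and 200.2; log2 fold change 0.55, SE 0.09, adjusted p = 0.00896). It did not pass without metaphyseal replicate 2 (log2 fold change 0.55, adjusted p = 0.0605). It was the only gene of the 10 tested of its list (median log2 fold change 0.27) to pass, while *Fos* and *Jun* did not (adjusted p = 0.559 and 0.422). The immediate early genes can move with tissue digestion, which was not tested.

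Of the 15 tested genes of the osteocyte list, 7 were higher and 0 lower, with a median log2 fold change of 1.12. The list includes *Phex*, *Dkk1*, *Ptprz1* and *Pdpn*, proposed with results of these data known, so it is not independent evidence, and 0 of the 15 passed by DESeq2. *Phex* held 101, 123 and 257 CPM in members and 74.8, 72.7 and 47.2 in comparison cells. It was higher in 3 of 3 libraries (log2 fold change 1.38, SE 0.30, adjusted p = 0.0445), and least so in metaphyseal replicate 1. Without the *Pdgfra-GFP* library *Phex* did not pass (log2 fold change 0.54, adjusted p = 0.205). *Dkk1* held 27.8, 55.2 and 220.1 in members and 14.8, 7.27 and 16.8 in comparison cells (log2 fold change 3.11, SE 0.34, adjusted p = 0.000649; without the *Pdgfra-GFP* library, log2 fold change 1.84, adjusted p = 0.000498). In metaphyseal replicate 2, 24 of its 26 member UMIs lay in 1 cell, and in metaphyseal replicate 1, 11 of 17. *Ptprz1* held 6.54, 31.9 and 132 and 11.8, 10.5 and 8.48, and *Pdpn* 4.90, 21.2 and 117 and 7.87, 12.1 and 21.3. Both passed (log2 fold change 3.05, SE 0.51, adjusted p = 0.0101; log2 fold change 1.91, SE 0.33, adjusted p = 0.0118), although they were lower in members of metaphyseal replicate 1, on 4 and 3 UMIs, and in metaphyseal replicate 2 a single cell held 7 of 15 *Ptprz1* and 9 of 10 *Pdpn* UMIs.

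Set side by side, the log2 ratios of members to comparison cells in the 3 libraries (CPM plus 1) were 0.35, 0.71 and 2.30 for *Phex*, 0.79, 2.72 and 3.52 for *Dkk1*, -0.83, 1.47 and 3.71 for *Ptprz1* and -0.65, 0.72 and 2.29 for *Pdpn*. Each was highest in the *Pdgfra-GFP* library, and with 1 library of that kind the spread between such libraries is not known. With the members that carried all 4 genes left out of every library, a choice made after seeing the data that lowers these genes by construction, the log2 fold changes were 0.34, 0.74, -0.14 and -0.91, and none passed (adjusted p = 0.472, 0.231, 0.953 and 0.228). *Mmp13*, *Spp1* and *Ibsp* still passed in that fit, with log2 fold changes of 3.05, 1.45 and 0.98. It called 88 genes, 69 of them among the 98.

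Of the remaining osteocyte genes, *Cd44* (log2 fold change 1.59, SE 0.31, adjusted p = 0.0274) held 22.9, 40.4 and 89.7 CPM in members and 16.7, 28.3 and 17.3 in comparison cells. It did not pass without the cells with all 4 markers (log2 fold change 0.35, adjusted p = 0.636) or without the *Pdgfra-GFP* library (adjusted p = 0.872). *Tnfrsf11b*, osteoprotegerin, the decoy receptor for the osteoclast factor RANKL, held 13.1, 19.1 and 38.5 and 7.87, 8.88 and 13.2 (log2 fold change 1.29, SE 0.23, adjusted p = 0.013). In single cells lay 5 of its 9 member UMIs of metaphyseal replicate 2 and 27 of 91 of the *Pdgfra-GFP* library, and it passed neither without that library (log2 fold change 0.86, adjusted p = 0.727) nor by DESeq2 (adjusted p = 0.942). The RANKL gene *Tnfsf11* was too scarce to be tested, with 5, 0 and 28 UMIs in members. *Mef2c*, a factor upstream of *Sost*, and *Gja1*, the gap junction protein of osteocyte dendrites, did not pass (adjusted p = 0.747 and 0.782). *Gja1* held 716, 595 and 549 in members and 579.6, 662 and 639.6 in comparison cells. Among 16 tested genes of dendrites, adhesion and cytoskeleton, *Pdpn*, *Cd44* and *Tagln2*, an actin-binding protein (log2 fold change 1.13, SE 0.22, adjusted p = 0.0216; without cells under 2% *Col1a1*, log2 fold change 0.64, adjusted p = 0.178; in the metaphyseal libraries alone, log2 fold change 0.62, adjusted p = 0.556), were higher and 0 were lower, with 0 passing by DESeq2 (median log2 fold change 0.07). Here too *Pdpn* was a marker proposed with results of these data known. Of 6 tested channel and junction genes 0 passed by edgeR or by DESeq2, and 2 had an unadjusted p under 0.05. *Panx3*, a channel protein of osteoblasts, had an adjusted p of 0.307.

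Genes of 3 bone morphogenetic proteins were higher in members. *Bmp4* held 21.3, 19.1 and 52.1 CPM in members and 6.89, 8.88 and 10.2 in comparison cells (log2 fold change 2.01, SE 0.24, adjusted p = 0.00111), and *Bmp8a* 24.5, 29.7 and 64.3 and 11.8, 9.69 and 9.39 (log2 fold change 2.27, SE 0.27, adjusted p = 0.00111). Neither gene's groups overlapped. *Bmp2* held 22.9, 6.37 and 88.1 and 13.8, 13.7 and 11.0, higher in metaphyseal replicate 1 and the *Pdgfra-GFP* library and lower in metaphyseal replicate 2, on 3 UMIs (log2 fold change 2.16, SE 0.43, adjusted p = 0.0285). In the metaphyseal libraries alone, *Bmp4*, *Bmp8a* and *Bmp2* had log2 fold changes of 1.28, 1.26 and 0.03, and none passed (adjusted p = 0.32, 0.182 and 0.996). In the *Pdgfra-GFP* library the 3 genes lay mainly in the 36 cells with all 4 markers, at 281, 273 and 399 CPM against 9.05, 25.1 and 29.7 in the other members. With the members of all 4 markers left out, *Bmp8a* passed (log2 fold change 1.20, adjusted p = 0.0224), and *Bmp4* (log2 fold change 0.19, adjusted p = 0.924) and *Bmp2* (log2 fold change 0.98, adjusted p = 0.218) did not. The list of osteoclast and hormone signals, which holds these genes and *Tnfrsf11b*, had 4 higher and 0 lower of 14 tested (median log2 fold change 0.43). The parathyroid hormone receptor *Pth1r* and *Fgfr1* did not pass (adjusted p = 0.232 and 0.974).

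Of 13 tested Wnt pathway genes, 3 were higher and 1 lower (median log2 fold change -0.09). The 3 encode secreted inhibitors, among them the marker *Dkk1*, proposed with results of these data known. Besides *Dkk1*, *Wif1* held 145, 123 and 569 CPM in members and 108, 71.0 and 270.4 in comparison cells (log2 fold change 0.73, SE 0.13, adjusted p = 0.0178), and *Sfrp4* 50.7, 42.5 and 55.9 and 5.90, 13.7 and 29.4 (log2 fold change 1.24, SE 0.28, adjusted p = 0.0487), the latter with its largest ratio in metaphyseal replicate 1. *Wif1* did not pass without metaphyseal replicate 2 (log2 fold change 0.72, adjusted p = 0.0734), in the metaphyseal libraries alone (log2 fold change 0.53, adjusted p = 0.167) or without the members of all 4 markers (log2 fold change 0.39, adjusted p = 0.148). *Sfrp4* did not pass without metaphyseal replicate 2 (log2 fold change 1.19, adjusted p = 0.105) or without cells under 2% *Col1a1* (log2 fold change 0.57, adjusted p = 0.707). In the metaphyseal libraries alone the log2 fold change of *Sfrp4* was 2.16 (edgeR, adjusted p = 2.45e-06). That fit rests on 2 libraries, with 31 and 20 *Sfrp4* UMIs in members. In metaphyseal replicate 1, 10 of the 31 lay in the 1 member under 2% *Col1a1*. The ligand *Wnt4* was lower in every library (55.6, 72.2 and 30.1 against 108, 111 and 48.3; log2 fold change -0.83, SE 0.15, adjusted p = 0.0159), and its metaphyseal members overlapped comparison cells of the *Pdgfra-GFP* library. *Wnt4* did not pass by DESeq2 (adjusted p = 0.0981) or where *Dmp1* and *Mepe* had to reach 0.05% of UMIs (log2 fold change -0.80, adjusted p = 0.105). *Apcdd1*, *Lrp5* and *Notum* did not pass. Among 17 tested transcription factors, *Irx3*, a homeobox partner of *Irx5* (log2 fold change 1.28, SE 0.22, adjusted p = 0.0124), and *Cebpb* (log2 fold change 0.72, SE 0.13, adjusted p = 0.0151) were higher, and *Dlx5*, an osteoblast homeobox factor (log2 fold change -0.66, SE 0.15, adjusted p = 0.0496), was lower (median log2 fold change 0.02). *Irx3* passed neither without the *Pdgfra-GFP* library (log2 fold change 0.72, adjusted p = 0.434) nor by DESeq2 (adjusted p = 0.172), *Cebpb* did not pass without cells under 2% *Col1a1* (log2 fold change 0.56, adjusted p = 0.11), and the *Dlx5* call was lost in 10 of 19 alternatives, among them those without metaphyseal replicate 1 (log2 fold change -0.56, adjusted p = 0.111) and without metaphyseal replicate 2 (log2 fold change -0.67, adjusted p = 0.159).

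Of 27 tested genes of the list of bone matrix and its processing, 0 were higher and 4 lower, with a median log2 fold change of -0.11. *Dcn*, decorin, a proteoglycan of collagen fibrils, held 4072, 3872 and 3716 CPM in members and 5189.8, 5457 and 7030.0 in comparison cells (log2 fold change -0.68, SE 0.10, adjusted p = 0.00579). All 3 member values lay below all comparison values. *Omd*, osteomodulin, another small proteoglycan of bone, held 134, 104 and 98.2 and 155, 206 and 209 (log2 fold change -0.89, SE 0.16, adjusted p = 0.0178). *Col11a1* (log2 fold change -0.44, SE 0.09, adjusted p = 0.0285) and *Col11a2* (log2 fold change -0.37, SE 0.08, adjusted p = 0.0298), chains of a minor fibril collagen, were lower by less. Without metaphyseal replicate 2 the calls of *Omd* (log2 fold change -0.82, adjusted p = 0.0868), *Col11a1* (log2 fold change -0.39, adjusted p = 0.23) and *Col11a2* (log2 fold change -0.36, adjusted p = 0.242) were lost, and that of *Col11a2* also in the metaphyseal libraries alone (log2 fold change -0.33, adjusted p = 0.0502). *Lum*, of the stromal and early osteoblast list (11 tested, 2 higher and 1 lower, median log2 fold change -0.10), held 1249, 1254 and 1336 and 1583, 1659.8 and 1865 with no overlap (log2 fold change -0.50, SE 0.08, adjusted p = 0.00658). The main collagen genes *Col1a1* and *Col1a2*, and *Sparc* did not pass (log2 fold changes -0.22, -0.15 and -0.19, adjusted p = 0.184, 0.422 and 0.248).

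Among genes of no list, *Smoc2*, a matricellular calcium-binding protein, was lower in every library (65.4, 61.6 and 55.9 against 107, 115 and 103; log2 fold change -0.94, SE 0.14, adjusted p = 0.00477), as was *Nbl1*, a secreted antagonist of bone morphogenetic proteins (88.3, 70.1 and 137 against 145, 129 and 241; log2 fold change -0.89, SE 0.12, adjusted p = 0.00295). *Gchfr*, a regulator of tetrahydrobiopterin synthesis, and *Car12*, a membrane carbonic anhydrase, were higher (log2 fold change 2.62, SE 0.41, adjusted p = 0.00707; log2 fold change 2.25, SE 0.34, adjusted p = 0.00545). In the metaphyseal libraries alone, *Car12* had a log2 fold change of 0.81 (adjusted p = 0.622), and 5 of its 7 member UMIs in metaphyseal replicate 2 lay in 1 cell. Without the members of all 4 markers *Gchfr* did not pass (log2 fold change 0.33, adjusted p = 0.684). It stood at 9.81, 10.6 and 153 in members and 8.86, 8.88 and 15.7 in comparison cells, so that the difference lay in the *Pdgfra-GFP* library, with 854 in the 36 cells with all 4 markers and 21.6 in the other members. *Postn*, of the stromal and early osteoblast list, was higher in every library (65.4, 65.9 and 134 against 25.6, 37.1 and 71.9; log2 fold change 0.88, SE 0.16, adjusted p = 0.0142), and did not pass without cells under 2% *Col1a1* (log2 fold change 0.44, adjusted p = 0.553). *Eno3*, a muscle enolase, was lower (log2 fold change -0.97, SE 0.20, adjusted p = 0.0341), but passed neither in the metaphyseal libraries alone (log2 fold change -0.68, adjusted p = 0.531) nor by DESeq2 (adjusted p = 0.742).

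**Figure D5:**
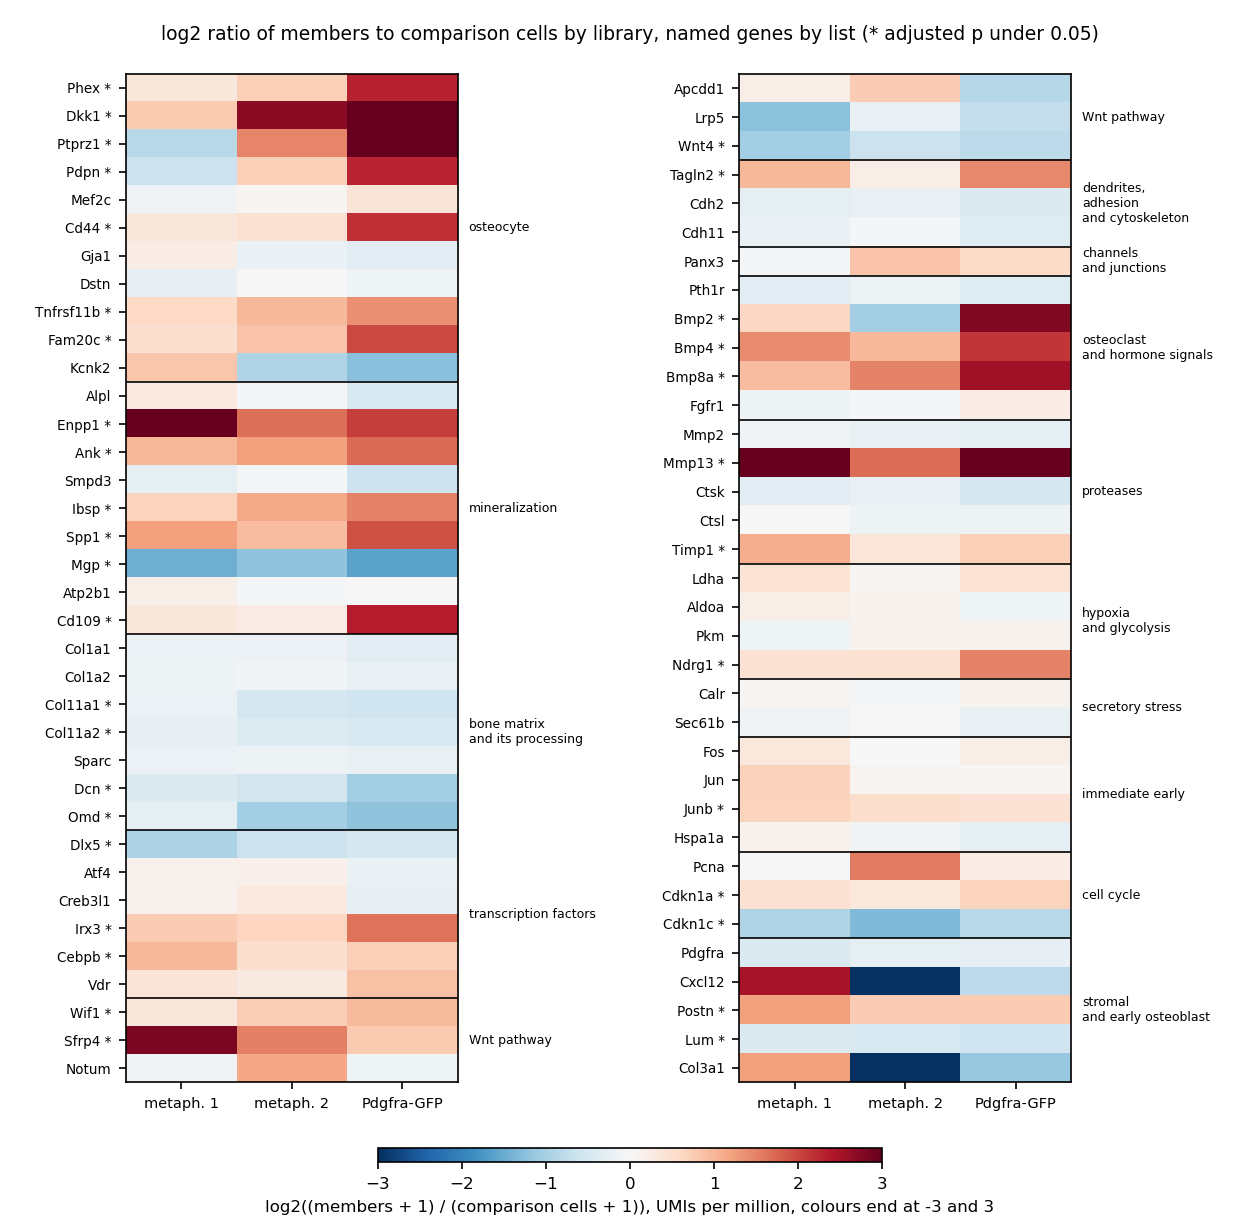
Colours give the log2 ratio of members to comparison cells in each library (columns), on CPM plus 1, for the tested named genes (rows) of the gene lists, each gene drawn once, with a star where the adjusted p was under 0.05. *Mmp13*, *Spp1*, *Ank* and *Enpp1* were higher and *Dcn*, *Omd* and *Mgp* lower in all 3 columns, whereas *Phex*, *Ptprz1*, *Pdpn*, *Cd44*, *Cd109* and *Bmp2* were strongest in the *Pdgfra-GFP* column, and *Cxcl12* and *Col3a1* pointed in opposite directions in the metaphyseal columns.

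Other groups showed few changes. Of 13 tested genes of the secretory stress list 0 passed by edgeR, 2 had an unadjusted p under 0.05 and 0 passed by DESeq2, with a median log2 fold change of 0.01. Of these, *Calr*, *Sec61b* and *Creb3l1* had adjusted p = 0.94, 0.703 and 0.972. Of 11 tested hypoxia and glycolysis genes (median log2 fold change 0.29) 1 passed, *Ndrg1* (log2 fold change 1.10, SE 0.23, adjusted p = 0.0341), and *Ldha*, *Pkm* and *Aldoa* did not. The *Ndrg1* call was lost in the metaphyseal libraries alone (log2 fold change 0.46, adjusted p = 0.817), without the members of all 4 markers (log2 fold change 0.37, adjusted p = 0.532) and by DESeq2 (adjusted p = 0.696). Of 3 tested cell cycle genes (median log2 fold change 0.46) *Cdkn1a* was higher (log2 fold change 0.50, SE 0.10, adjusted p = 0.0341) and *Cdkn1c* lower (log2 fold change -0.93, SE 0.19, adjusted p = 0.0325), and *Mki67* and *Top2a* were too scarce to be tested. The *Cdkn1a* call was lost in 8 of 20 alternatives, among them those without metaphyseal replicate 2 (log2 fold change 0.57, adjusted p = 0.0611), without the *Pdgfra-GFP* library (log2 fold change 0.39, adjusted p = 0.235) and without the members of all 4 markers (log2 fold change 0.23, adjusted p = 0.527). The level of *Cdkn1c* in the *Pdgfra-GFP* library was 145 CPM in the 36 cells with all 4 markers and 15.1 in the other members, on either side of the 58.6 of comparison cells, and its call was lost without cells under 2% *Col1a1* (log2 fold change -0.47, adjusted p = 0.629), without metaphyseal replicate 2 (log2 fold change -0.85, adjusted p = 0.0828) and without the *Pdgfra-GFP* library (log2 fold change -1.11, adjusted p = 0.205). *Pdgfra* itself held 81.7, 87.1 and 47.4 in members and 104, 103 and 51.9 in comparison cells (adjusted p = 0.441). The *H2B-GFP* transcript stood at 54.2 in members of the *Pdgfra-GFP* library and at 51.8 in its comparison cells.

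Markers of other cell types moved with some of the calls. The 5 neutrophil markers summed to 27.8, 65.9 and 87.6 CPM in members and 4055, 55.7 and 1204 in comparison cells, with *S100a9* or *S100a8* the most abundant, and the lower calls of *Camp* (log2 fold change -4.54, SE 0.41, adjusted p = 0.000152) and *Lyz2* (log2 fold change -3.24, SE 0.32, adjusted p = 0.000308) moved with them. In metaphyseal replicate 1, 4089 of the 4121 neutrophil UMIs of comparison cells lay in 1 cell. Comparison cells had no limit on blood or cartilage genes. The 11 chondrocyte markers summed to 1958, 1842 and 1943 and 2431, 2381 and 4086, led in each by *Col11a2*, which osteoblasts also express. *Col2a1* stood at 19.6, 127 and 488 and 258, 198 and 1645 (log2 fold change -1.86, SE 0.30, adjusted p = 0.00791). When comparison cells had to meet the exclusions set for members, 13 named calls were lost: *Col2a1*, *Mgp*, *Ecrg4* and *Fabp4* (adjusted p = 0.3, 0.207, 0.0954 and 0.123), *Cdkn1c* (log2 fold change -0.43, adjusted p = 0.531), and 8 others, with adjusted p of 0.0525 to 0.146, whose log2 fold changes were near those of all comparison cells (1.25 for *Phex*, 1.21 for *Sfrp4*, -0.81 for *Omd*, 0.69 for *Wif1*, 1.71 for *Cd109*, 1.08 for *Ndrg1*, 0.47 for *Cdkn1a* and -0.68 for *Dlx5*), while *Mmp13*, *Ibsp*, *Spp1*, *Dcn* and *Lum* still passed. The haemoglobin gene *Hba-a1* was called higher (log2 fold change 2.24, SE 0.28, adjusted p = 0.00117), but 7417 of the 8573 haemoglobin UMIs of members of the *Pdgfra-GFP* library lay in 1 cell. Without that cell the 4 haemoglobin genes stood at 492 CPM in members, and in comparison cells at 632, or 555.5 without the highest of those cells. The 5 marrow stroma markers, led by *Cxcl12* in 5 of the 6 sums, summed to 651, 74.4 and 417 in members and 118, 432 and 638 in comparison cells. Of the 11 chondrocyte markers, 10, 7 and 10 had UMIs in members and 7, 9 and 11 in comparison cells, and of the 8 macrophage and myeloid markers 3, 1 and 6 had UMIs in members and 5, 3 and 8 in comparison cells. The endothelial, macrophage and chondrocyte sums hold genes that were limited in members by the selection and not in comparison cells (*Cdh5* and *Pecam1*, *Laptm5* and *Tyrobp*, and *Acan*), so their difference between the populations is in part set by the selection. The 8 endothelial markers stood at 16.3, 21.2 and 9.74 and 105, 124 and 11.4, the 8 macrophage and myeloid markers at 31.1, 12.7 and 43.2 and 230.3, 26.6 and 113, the 5 erythroid markers at 58.9, 74.4 and 3637 and 51.2, 70.2 and 634, the 6 osteoclast markers, led by *Ctsk*, at 211, 204 and 238 and 246, 233 and 276, and the 4 B lineage markers at 0, 0 and 3.81 and 0, 0.807 and 6.07. Single comparison cells of metaphyseal replicate 1 held 69 of its 107 endothelial and 196 of its 234 macrophage and myeloid UMIs. In metaphyseal replicate 2, 1 comparison cell held 71 of 153 endothelial UMIs. Of the marrow stroma UMIs of metaphyseal replicate 1, single cells held 237 of 398 in members and 70 of 120 in comparison cells. The 4 mural markers stood at 3.27, 2.12 and 7.62 and 1.97, 2.42 and 26.3, the 5 fibroblast markers at 57.2, 12.7 and 51.2 and 56.1, 17.8 and 35.4, and the 4 septoclast markers, led by *Fabp5*, at 39.2, 31.9 and 55.5 and 37.4, 43.6 and 57.0. With cells rich in *Cxcl12*, haemoglobin, neutrophil, *Col2a1* or endothelial RNA left out of both populations, 39 of the 43 named calls that could be tested still passed, *Mmp13*, *Spp1*, *Ibsp*, *Phex*, *Dkk1* and *Dcn* among the genes described, and *Cdkn1c*, *Col2a1*, *Mgp* and *Hba-a1* did not. The part of the B lineage, osteoclast, mural, fibroblast and septoclast markers in the results was not tested.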

How the data were processed

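Droplet 3′ single-cell libraries were made by the authors from 2 metaphyseal samples and 1 sample of sorted *Pdgfra-GFP*+ cells. The authors aligned reads with STARsolo (STAR 2.7.3a) to mm10 with Gencode M23 and the *H2B-GFP* transgene, and the deposited values are raw UMI counts for 55422 genes over all barcodes, unfiltered and not normalized. The submitters' processing notes also name bcl2fastq, fastp 0.20 and Cell Ranger. Gene positions came from Gencode M21, of the same build, and promoters from RefSeq (GRCm38.p6).

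Cells were kept with at least 1500 genes (metaphyseal) or 1000 genes (*Pdgfra-GFP*), at most 15% mitochondrial and at most 30% ribosomal protein UMIs, the limits of the study's methods; no empty-droplet test was added. The members, marker genes, 14 gene lists and tests were chosen with earlier results of these data known. Cells are not replicates, so raw counts were summed per library and population (at least 5 cells, 6 sums) and tested in edgeR 4.0.16 (TMM, filterByExpr, quasi-likelihood, library as a block, 2 residual degrees of freedom, R 4.3.3). The library pairs the 2 sums of a fit because they hold cells of 1 preparation; deviations of the paired sums correlated at 0.171, 0.267 and 0.724 over 6736 genes. Levels in the text are CPM, computed here from the counts; the per-library ratios drawn as colours add 1. On simulated counts with 200 of 6448 genes changed 4-fold, 179 were tested and 179 found (100%), and 21 unchanged genes were called (0.335%). The 21 made up a larger share of the calls than the 0.05 at which the adjusted p was set. Intervals are exact, at 95%. The limit for a count of 0 is fixed at 3 UMIs, which is lower than the upper end of such an interval. Shares were also taken with each cell thinned to 2000 UMIs, for which 4 comparison cells of the *Pdgfra-GFP* library and 0 members were too shallow. Scrublet (scanpy 1.11.5) called 24, 12 and 171 kept cells doublets, 1, 0 and 1 of them members and 0, 0 and 50 comparison cells, below the expected 1.91%, 1.60% and 8.99% of cells; its calls were removed in an alternative only.

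Named genes were the 6 markers, the 10 largest changes in each direction among called genes with a mean of at least 20 CPM and the same direction in every library, and, for each list, up to 6 called genes by fold and up to 3 others by level; *Ibsp* and *Spp1*, and the genes given for the cells with all 4 markers, were chosen after their values were seen. Of 20 other settings tried, 17 were listed at the start and 3 were added after seeing the data: leaving out members with all 4 markers, leaving out cells with *Col1a1* under 2% of UMIs, and leaving out cells with at least 20 UMIs of *Cxcl12*, 50 of haemoglobin, 50 of neutrophil genes, 100 of *Col2a1* or 10 of endothelial genes. Symbols on 2 rows of the annotation (*Aldoa*, *Ddit3*) were taken from the row with more UMIs. *Bglap*, *Bglap2* and *Bglap3*, likewise *Hba-a1* and *Hba-a2*, and *Hbb-bs* and *Hbb-bt*, are near-identical copies between which reads cannot be split with certainty.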

Additional observations from a re-analysis of the deposited data

Results flagged for a closer look

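A term for the difference of the fold between the *Pdgfra-GFP* library and the metaphyseal libraries passed an adjusted p of 0.05 in edgeR in 51 of 6731 genes, with 34 folds larger in the *Pdgfra-GFP* library and 17 smaller, and 373 genes had an unadjusted p under 0.05. Only 1 library stands on the *Pdgfra-GFP* side and 1 residual degree of freedom is left, so that library is assumed to vary like the others, the p-values do not measure the spread between *Pdgfra-GFP* libraries, and the differences below are descriptions of these libraries. The sort, the reporter genotype and the library, and the dissected region if it differed, cannot be told apart. Among named genes the fold was larger in the *Pdgfra-GFP* library, on the log2 scale, by 1.79 for *Phex*, 1.74 for *Dkk1*, 3.17 for *Ptprz1*, 2.05 for *Pdpn*, 1.82 for *Cd44*, 2.10 for *Cd109*, 1.32 for *Fam20c*, 2.83 for *Bmp2*, 1.99 for *Car12* and 3.03 for *Gchfr*. It was also larger by 0.59 for *Ibsp* and 0.83 for *Spp1*, and for *Dcn* it was -0.56, a stronger decrease in the *Pdgfra-GFP* library. The members with all 4 markers made up 36 of 195 in the *Pdgfra-GFP* library and 1 of 26 and 1 of 22 in the metaphyseal libraries, and those with *Col1a1* under 2% made up 34 of 195, 1 of 26 and 0 of 22.

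For *Hba-a1* the difference of the folds was 1.96, and 1709 of its 1928 member UMIs in the *Pdgfra-GFP* library lay in 1 cell. With cells rich in RNA of other types left out, its log2 fold change was 0.07 (edgeR, adjusted p = 0.986). For *Camp* the difference was 3.98, a smaller decrease in the *Pdgfra-GFP* library, and the gene was too scarce to be tested once such cells were left out.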

How the results depend on the processing

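The 98 genes called by edgeR became 40 with the DESeq2 Wald test (39 shared with the 98), 337 with no filter on low counts, 41 in cells within the interquartile range of the members' depth (4339 genes tested), 26 after thinning to 2000 UMIs (1145 genes tested) and 148 with cells rich in RNA of other types left out, a choice made after seeing the data. With no library block, and so no pairing, 0 of 6731 genes passed and 183 had an unadjusted p under 0.05, against 696 with the block. Leaving out 1 library gave 89 to 237 calls: 237 without metaphyseal replicate 1 (94 shared), 131 without metaphyseal replicate 2 (69 shared) and 89 without the *Pdgfra-GFP* library (46 shared). The 45 calls among named genes became 22 with DESeq2, 14 in that depth range, 8 after thinning, 0 without the block and 21 to 49 with 1 library left out. Of the 45 themselves, 7 kept their call after thinning and 9 kept only the direction, and in the depth range 14 and 16 did so. The rest of the 45 could not be tested in these 2 settings. Without the *Pdgfra-GFP* library, 19 of the 45 still passed.

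Over 20 alternatives, 671 of 845 values for these genes kept direction and call, 171 kept direction only and 3 reversed, none of the genes being kept throughout. The 3 were *Hba-a1* (-0.29) without cells under 2% *Col1a1*, which included the member with most haemoglobin RNA, and *Pdpn* (-0.91) and *Ptprz1* (-0.14) with the members of all 4 markers left out, where they are low by construction. Without cells under 2% *Col1a1* 102 genes were called, 77 of them shared with the 98, and 39 of the 45 named calls kept. Asking for 10 UMIs of *Dmp1* and *Mepe* gave member shares of 0.588%, 0.649% and 1.005%, asking for 0.05% of UMIs gave 0.504%, 0.599% and 1.37%, and asking for 1500 genes everywhere gave 2.03% in the *Pdgfra-GFP* library. The test of *Mepe* among cells chosen by *Dmp1* alone could not be made because *Mepe* did not pass filterByExpr, nor that of *Dmp1* among cells chosen by *Mepe*, which numbered 0, 1 and 0. With 26 and 22 members in the metaphyseal libraries, genes at a few CPM were not measurable there.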

Other observations

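Cells with *Mepe* lay mostly outside the members. Only 4, 8 and 7 kept cells of the 3 libraries held at least 5 UMIs of *Mepe*, and these 19 cells held 1167 of the 1273 *Mepe* UMIs of all kept cells (91.7%). They had little osteocalcin: *Bglap* summed to 0, 38 and 183 UMIs, in 0, 2 and 5 of the cells, and 0, 1 and 0 of them were members. Their depth was low, with medians of 6577, 6408.5 and 5878 UMIs. *Spp1* stood at 191197, 136321 and 109130 CPM in them, and *Ank* at 1665, 1397 and 1477, while *Col1a1* stood at 2182, 23508 and 5657, far below its level in members. In the 7 *Pdgfra-GFP* cells the cartilage genes *Col2a1*, *Col10a1* and *Acan* stood at 20003, 3868 and 1011 CPM, in 5, 2 and 5 of the cells, while in the metaphyseal cells they stood at 0, 0 and 0 and at 336, 26.9 and 0. *Dmp1* stood at 10579, 8906 and 14579, though in 2, 8 and 4 of the cells, and *Sost* had 0, 0 and 1 UMI. These cells were chosen after their values were seen, and no test was made.

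Of 51, 39 and 249 kept cells with at least 5 UMIs of *Dmp1* and *Mepe*, 24, 17 and 38 held fewer than 10 UMIs of osteocalcin. In these cells *Phex* stood at 224.5, 245 and 209 CPM and *Ibsp* at 14058, 6486 and 13711, above the members of the same library except for *Phex* in the *Pdgfra-GFP* library. Genes of cartilage were high in some of them: *Col10a1* stood at 2276, 9331 and 983 (4.90, 8.50 and 6.35 in members), in 2, 5 and 6 of the cells, and *Acan* at 172, 577 and 266, in 2, 3 and 7. In the *Pdgfra-GFP* library 54 kept cells, 36 of them members, held *Phex*, *Dkk1*, *Ptprz1* and *Pdpn* together.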
